A study of Mus musculus with 2 samples.

Results

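Ubiquitin ligase adaptors and deubiquitinases were taken as the genes whose symbol begins with Klhl, Fbxo, Fbxl, Fbxw or Usp followed by a digit. That rule matched 171 protein-coding genes of the 21887 on the mouse autosomes and sex chromosomes, namely 37 Klhl, 36 Fbxo, 18 Fbxl, 24 Fbxw and 56 Usp genes. Of the 2374 peaks called for the transcription factor FOS, 24 belonged to these genes, and they lay at 21 of the 171. A peak was counted for the gene with the nearest transcription start site (TSS). It was also counted for the gene that the authors' annotation named as holding it in an exon, intron, promoter or gene end. Another gene that overlaps the same peak, as Usp37 does below, was not counted. The second way added no peak to the 24.

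The chromatin came from granulosa cells, which nurse the egg inside a follicle of the ovary, of wild-type females aged 25 days. PMSG, a hormone given to make follicles grow, had been followed by hCG, which stands in for the luteinizing hormone surge and triggers ovulation. Follicles were punctured 3 h later to free the cells, and the chromatin of 1 library was immunoprecipitated with a FOS antibody. A second library of the same treatment names no antibody in its label and was not analysed here. Without a replicate, an untreated group or read counts, the depth of the library is unknown, no value carries an error between animals and no test was made. FOS peaks were assigned to 4 of 8 granulosa markers (Inhba, Nr5a2, Cyp19a1 and Lhcgr), against 8.69% of all coding genes. They were also assigned to the theca marker Cyp17a1, to 1 of 2 endothelial markers, and to none of 2 immune and 2 oocyte markers. The granulosa marker peaks lay 5.7 to 724 kb from the TSS, none of them in the promoter class. The Cyp17a1 peak lay 29.8 kb from the TSS, inside Wbp1l. A peak does not measure expression, so the cell type could not be checked in this way.

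FOS is a subunit of AP-1, a dimeric transcription factor that binds TGACTCA and TGAGTCA, searched for here together as TGANTCA. Ubiquitin is a small protein that is attached to other proteins by a ligase and marks many of them for destruction by the proteasome. The KLHL proteins carry a BTB domain and Kelch repeats and bring substrates to the cullin CUL3. F-box proteins bring substrates to CUL1 through SKP1, and are named FBXW where they carry WD40 repeats, FBXL where they carry leucine-rich repeats and FBXO otherwise. The USP enzymes are cysteine proteases that take ubiquitin off again. Adaptors thus decide which proteins a ligase marks.

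At 3 promoters of the group, a FOS peak covered a perfect TGANTCA match. They are shown because, among the member promoters searched, they were the ones in which a peak and the AP-1 motif were found together. Each stretch runs 5′ to 3′ on the strand of the gene, is taken from RefSeq (GRCm38.p6, the assembly called mm10), and has the motif in capitals.
Klhl21, chr4:152008772-152008800, plus strand: gtaggcggctgTGACTCAgaccgcagtgc
Usp38, chr8:81015107-81015135, minus strand: gagtggccgcgTGACTCActccgtgcctc
Fbxo4, chr15:3979540-3979568, minus strand: ggctaacggggTGAGTCAttccgggccac
The first base of the motif lay 108 bases before the TSS of Klhl21 and 218 bases before that of Usp38. At Fbxo4 it lay 16 bases after the TSS. The centre of the motif was 3 bp from the centre of the FOS peak at Klhl21, 23 bp from it at Usp38 and 86 bp from it at Fbxo4. The 250 bases before the TSS of Klhl21 and Usp38 put the motifs in their setting, again with the motif in capitals.
Klhl21, chr4:152008641-152008890, plus strand: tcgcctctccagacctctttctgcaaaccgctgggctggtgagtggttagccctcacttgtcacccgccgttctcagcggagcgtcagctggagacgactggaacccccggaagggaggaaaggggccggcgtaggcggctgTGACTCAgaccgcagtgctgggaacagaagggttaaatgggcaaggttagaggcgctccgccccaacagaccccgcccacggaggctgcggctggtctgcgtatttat
Usp38, chr8:81014907-81015156, minus strand: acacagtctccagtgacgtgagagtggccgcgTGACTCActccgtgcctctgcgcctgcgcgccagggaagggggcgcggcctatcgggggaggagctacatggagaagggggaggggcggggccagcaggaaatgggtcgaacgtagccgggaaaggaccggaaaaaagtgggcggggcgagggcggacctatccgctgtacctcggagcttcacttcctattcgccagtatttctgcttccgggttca

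The motif was searched in RefSeq promoter windows of 300 bases, 250 before and 50 after each TSS, on both strands, with any base allowed at the N. The counts therefore also hold TGAATCA and TGATTCA, as in the windows of Usp31 and Klhl13. Windows were found for 133 of the 171 members. TGANTCA was present in 7.81% of all 32851 windows and in 11 of the 165 windows of members (6.67%, exact 95% interval 3.37 to 11.6). Among the 365 windows of any gene that a FOS peak overlapped, 29.6% held the motif (interval 25.0 to 34.6), against 7.56% of the windows without a peak. A FOS peak overlapped 4 member windows, and 3 of them held the motif. The fourth was the window of Usp37, which encodes a deubiquitinase of the cell cycle. Its peak, with a score of 28, was assigned to the neighbouring gene Cnot9, whose TSS lay 220 bp away, and no TGANTCA was found in the window of Usp37. Of the 161 member windows that no peak overlapped, 8 held TGANTCA (4.97%), among them those of Fbxl4, Fbxw5, Klhl40 and Usp10. The related sequence TGACGTCA, the full cAMP response element, was in 1.79% of all windows, in 8.22% of windows with a peak and in none of the 4 member windows with a peak. A match describes these letters and is not a measured binding site.

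**Figure D1:**
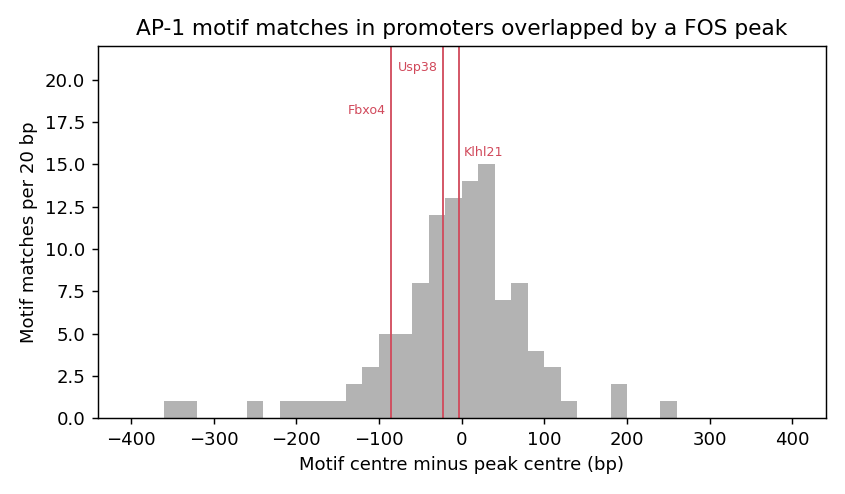
Number of TGANTCA matches per 20 bp (vertical axis) by the distance in bp from the motif centre to the peak centre along the chromosome (horizontal axis), for the 110 distinct matches in promoter windows overlapped by a FOS peak; red lines mark the 3 members. Of the 110 matches, 91 lay within 100 bp of the peak centre, and Fbxo4, Usp38 and Klhl21 lay 86, 23 and 3 bp from it.

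In the 365 windows of any gene with a peak, 110 distinct TGANTCA matches were found, each counted once where windows overlap. The median distance between a match and the centre of its peak was 42 bp, and 105 of the 110 lay wholly inside the peak. The matches at Klhl21 and Usp38 were closer to the peak centre than that median and the match at Fbxo4 was farther from it. All 3 were within 100 bp. The search was limited to promoter windows, so matches in the outer parts of a peak were counted only where the window reached them. These windows were chosen because a peak overlapped them, which by itself favours short distances. No expected distance for other positions in the same windows was computed.

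FOS peaks were found at 21 of the 171 genes, which is 12.3% (exact 95% interval 7.77 to 18.2). The same count over all protein-coding genes was 1902 of 21887, or 8.69%, a value inside that interval. With the nearest gene alone the members' share was unchanged, and the 7.58% of coding genes lay just below its interval. With peaks within 100 kb of the TSS the share was 11.7% (interval 7.29 to 17.5), and the 6.89% of coding genes again lay just below. The intervals here and below cover counting error only. By subfamily, 8 of 37 Klhl genes had a peak (21.6%, interval 9.83 to 38.2) and 8 of 56 Usp genes (14.3%, interval 6.38 to 26.2). The shares were 3 of 36 for Fbxo (8.33%, interval 1.75 to 22.5) and 2 of 24 for Fbxw (8.33%, interval 1.03 to 27.0). None of the 18 Fbxl genes had a peak (interval 0 to 18.5). By the simpler limit of 3 counts, a count of 0 among 18 allows a share of up to 16.7%. The 3 F-box subfamilies together had 5 of 78 genes with a peak (6.41%, interval 2.11 to 14.3). The share was highest for Klhl and lowest for Fbxl, but the intervals of all 5 subfamilies overlapped one another. The value for all coding genes lay below the interval of Klhl and inside those of Fbxo, Fbxl, Fbxw and Usp. With peaks of at least the median score alone, 4 of 37 Klhl genes had one (10.8%, interval 3.03 to 25.4), and the 4.75% of coding genes then lay inside the interval. With the nearest gene alone the Klhl share was unchanged, and the 7.58% of coding genes lay below its interval. With peaks within 100 kb of the TSS it was 18.9% (interval 7.96 to 35.2), and the 6.89% of coding genes also lay below. The difference between subfamilies was not tested.

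**Figure D2:**
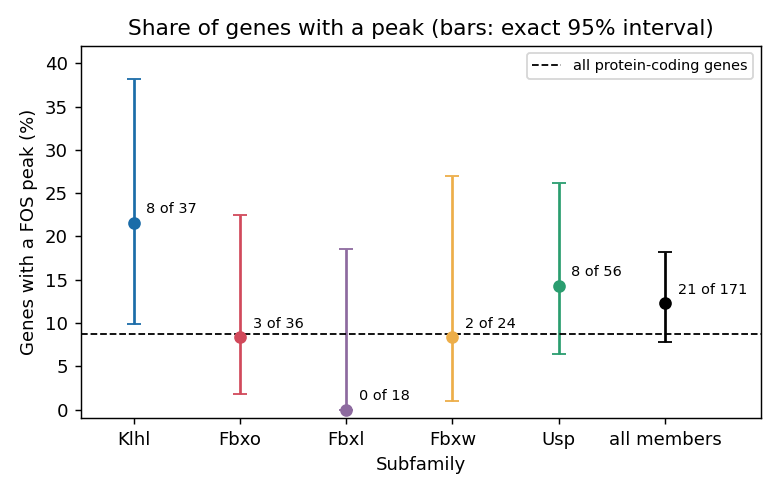
Percentage of genes with at least 1 FOS peak (vertical axis) in each subfamily and in all 171 members (horizontal axis); points are shares, bars exact 95% intervals for counting error, and the dashed line is the 8.69% of all protein-coding genes. Klhl has the highest point at 21.6%, Fbxl is at 0, and the intervals overlap.

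Long genes had FOS peaks more often, and many members are long. Coding genes were put in 4 groups of equal size by annotated span, and the share with a peak was 3.05% in the shortest group and 17% in the longest, above 44.3 kb. Of the members, 62 fell in that longest group and 13 of the 62 had a peak (21.0%). In the next group 5 of 56 members had one (8.93%, against 8.37% of coding genes), then 2 of 38 (5.26%, against 6.36%) and, in the shortest group, 1 of 15 (6.67%). The median span was 60.6 kb for the 21 members with a peak and 26.8 kb for the 150 without. For coding genes with and without a peak it was 43.0 kb and 15.9 kb. Within the subfamilies the median span was 48.0 kb for Usp, 28.0 kb for Fbxo, 26.8 kb for Klhl, 22.2 kb for Fbxw and 22.1 kb for Fbxl. The Klhl genes had the highest share and a median span below those of Usp and Fbxo. Of the Klhl genes with a peak, Klhl29 (298 kb), Klhl14 (123 kb), Klhl2 (110 kb) and Klhl5 (60.6 kb) exceeded 44.3 kb. Klhl25 (25.8 kb), Klhl31 (23.4 kb), Klhl21 (8.79 kb) and Klhl9 (4.22 kb) did not. The part of gene length in the shares was not tested.

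**Figure D3:**
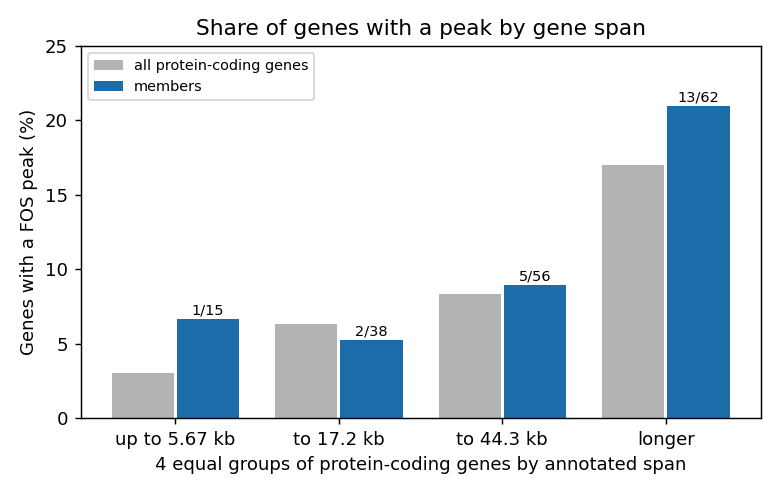
Percentage of genes with a FOS peak (vertical axis) in 4 equal groups of all protein-coding genes ordered by annotated span (horizontal axis); grey bars are all coding genes and blue bars are members, with the number of members with a peak and in the group above each. Both are highest for the longest genes, where 13 of 62 members and 17% of coding genes had a peak.

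The scores of the 24 peaks were spread over most of the list, apart from its top. The authors' peak score ranks peaks within this list alone. Over the 24 it had a median of 50.5 (95% interval of the median 40 to 85, from binomial order statistics) and ran from 19 to 194. All 2374 peaks had a median of 67, inside that interval, and ran from 13 to 2234. Of the 24, 10 scored 67 or more (41.7%, against 51.0% of all peaks) and 5 scored 99 or more (20.8%, against 26.0%). The median was 50.5 for the 10 Klhl peaks, 56 for the 8 Usp peaks and 84 for the 4 Fbxo peaks. The Fbxo value rested on both peaks of Fbxo4, since the others of that subfamily scored 44 and 29.

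**Figure D4:**
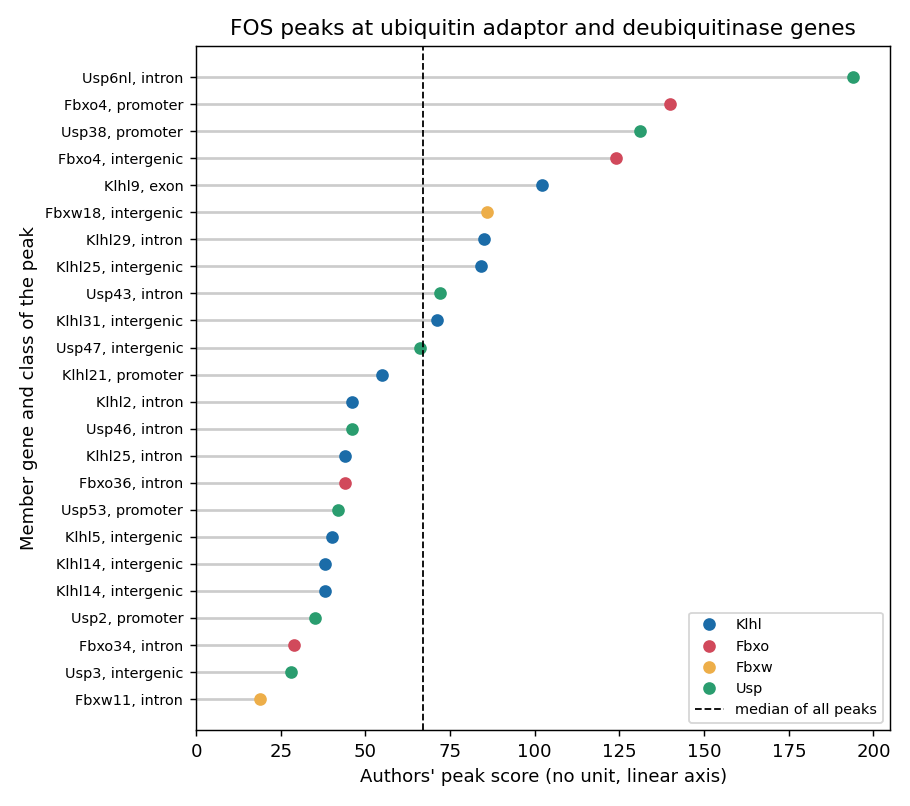
The authors' score (horizontal axis) of each of the 24 FOS peaks (vertical axis, gene and class of the peak), coloured by subfamily; the dashed line is the median of all peaks, 67. Of the 24 peaks, 10 lie at or above the line, led by Usp6nl at 194, Fbxo4 at 140 and 124, and Usp38 at 131.

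By position, 9 of the 24 peaks were in introns, 9 were intergenic, 5 were in the authors' promoter class and 1 was in an exon. The promoter share was 20.8% (exact 95% interval 7.13 to 42.2), against 15.2% of all peaks. The intronic and the intergenic share were both 37.5% (interval 18.8 to 59.4), against 44.7% and 35.4% of all peaks. Counted by gene, 5 of 171 members had a promoter peak (2.92%), against 1.66% of coding genes. The median distance between peak centre and TSS was 31.4 kb (95% interval of the median 2.22 to 60.8), and the 18.2 kb of all peaks lay inside that interval. In all, 21 of 24 (87.5%) lay within 100 kb of the TSS, against 87.1% of all. Upstream of the TSS lay 13 of the 24 (54.2%, against 44.6% of all). For Klhl this was 7 of 10 and for the F-box genes 1 of 6. A pair of peaks was found at 3 of the 21 genes (14.3%, against 16.7% of coding genes with 2 or more), and the other 18 had 1.

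**Figure D5:**
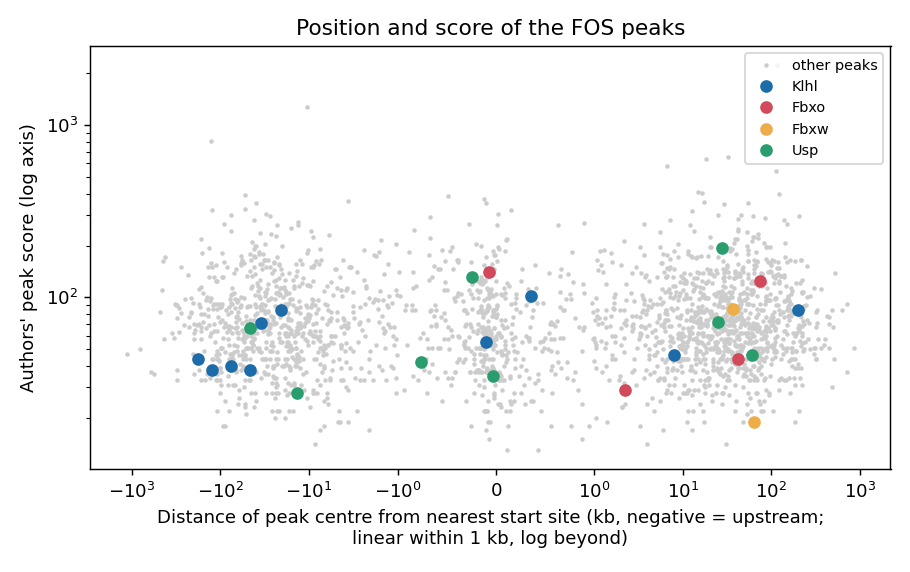
The authors' score (vertical log axis) against the distance of the peak centre from the nearest TSS in kb (horizontal axis, negative upstream, linear within 1 kb and logarithmic beyond) for the 24 member peaks, coloured by subfamily, and for all other peaks in grey. The members lie among the other peaks, with 6 within 1 kb of a TSS and the farthest, at Klhl29, at 198.3 kb.

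Among the Klhl genes the best score was at Klhl9, whose product works with CUL3 on the mitotic kinase Aurora B. Its peak at chr4:88721899-88722396 scored 102, rank 559 of 2374, and lay in the only exon of the gene, 361 bp after the TSS. Klhl21 encodes another CUL3 adaptor for Aurora B. Its promoter peak, at chr4:152008608-152008971, scored 55 (rank 1502), lay 102 bp before the TSS and holds the motif shown above. Klhl9 and Klhl21 were the only Klhl genes with a peak within 1 kb of the TSS. Klhl9 spans 4.22 kb and Klhl21 8.79 kb, below the median of 26.8 kb for Klhl genes.

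The other Klhl peaks were distal or intronic. The peak of Klhl29, at chr12:5177172-5177536, scored 85 (rank 802) and lay in intron 3 of 13, 198.3 kb into a gene of 298 kb. Klhl25, whose product is an adaptor for the translation inhibitor 4E-BP1, had 1 peak between genes, 20.8 kb upstream (chr7:75827387-75827742), that scored 84 and 1 that scored 44, 180.8 kb upstream. The far peak is inside intron 10 of 36 of Akap13, so its assignment to Klhl25 rests on distance to the TSS alone. Klhl31, known for its role in skeletal muscle, had 1 between genes that scored 71, 35.2 kb upstream. Klhl2, an adaptor for WNK kinases, carried its peak, which scored 46, in intron 1 of 14, 7.9 kb after the TSS. Its partner in that role, Klhl3, had none assigned.

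Klhl5 and Klhl14 held the lowest Klhl scores. The single peak of Klhl5 scored 40 and lay 76.0 kb upstream of the TSS used by the authors, only 3.02 kb from the span of Tmem156. Klhl14 had a pair of intergenic peaks on chromosome 18 that both scored 38, at 46.6 and 124.4 kb upstream of the TSS used by the authors. The annotated span of Klhl14 ends at chr18:21672929 and the nearer peak begins at chr18:21698777, so both peaks are closer to the span than to that TSS. The 2 peaks are 77.8 kb apart, and each was the other's nearest neighbour in the list. Of the 10 Klhl peaks 4 scored 67 or more, at Klhl9, Klhl29, Klhl25 and Klhl31.

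Among the F-box genes, Fbxo4 stood at the top with 2 peaks of high score. FBXO4 is a substrate adaptor known for cyclin D1. The promoter peak, at chr15:3979466-3979814, scored 140 (rank 281) and was centred 67 bp before the TSS. The second, at chr15:3905556-3905967, scored 124 (rank 378) and was intergenic, 73.8 kb downstream of the TSS and beyond the end of the 16.0 kb gene. No other peak lay between them. The nearest other coding gene to either peak was AW549877, whose span was 2.4 kb from the promoter peak and 76.3 kb from the distal one.

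The peak of Fbxo36 scored 44 and lay in intron 2 of 3, 42.1 kb after the TSS, and Fbxo34 one of score 29 in an intron 2.2 kb after the TSS. Fbxw11 encodes beta-TrCP2, the adaptor that recognises phosphorylated beta-catenin and IkappaB. Its peak in intron 2 of 12, 64.3 kb after the TSS, had the lowest score of the group, 19 (rank 2342). Fbxw18 is 1 of 15 Fbxw genes that lie on chromosome 9, many of them near-identical copies in tandem. Its peak scored 86 and lay between genes, 36.8 kb downstream of its TSS and 0.524 kb from the span of the neighbouring copy Fbxw25. Which of the copies the peak belongs to cannot be told from distance, and how reads that match several copies were placed is not known from the sources used. The other 14 of these genes had no assigned peak.

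Among the Usp genes the highest score was at Usp6nl, which the symbol rule includes although its product is not a deubiquitinase. USP6NL, also called RN-tre, is a GTPase-activating protein for Rab GTPases. Its peak, at chr2:6379848-6380757, scored 194 (rank 100), was the widest of the 24 at 910 bp, and lay in intron 1 of 13, 27.6 kb after the TSS. The widths of the 24 ran from 268 bp with a median of 363 bp, against 342 bp for all peaks. The next FOS peak was 332 kb away.

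The highest score of a deubiquitinase gene with a Usp symbol was at the promoter of Usp38. This peak, at chr8:81014920-81015369, scored 131 (rank 336), was centred 238 bp before the TSS and holds the TGACTCA shown above. It stood alone, with the next FOS peak 1810 kb away. At Usp43 the peak, with a score of 72, was in intron 5 of 14, 25.0 kb after the TSS. Usp47, whose product acts on DNA polymerase beta in base excision repair, had its peak between genes, 47.0 kb upstream, with a score of 66. Usp46, whose product acts on glutamate receptors, held a peak that scored 46 in intron 5 of 8.

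The remaining Usp peaks scored 42 or less. Usp53, which encodes a tight junction protein of the family, had a promoter peak of score 42 centred 766 bp before the TSS (chr3:122985058-122985369). Usp2, a deubiquitinase gene under circadian control, had a promoter peak of score 35 centred 29 bp before the TSS (chr9:44066859-44067126). Usp3, whose product removes ubiquitin from histone H2A, had 1 that scored 28, between genes and 13.6 kb upstream. Promoter peaks thus made up 3 of the 8 Usp peaks, 1 of the 10 Klhl peaks, 1 of the 4 Fbxo peaks and none of the 2 Fbxw peaks. The 5 promoter peaks scored 140 (Fbxo4), 131 (Usp38), 55 (Klhl21), 42 (Usp53) and 35 (Usp2). The starts of Usp2 and Usp53 at these peaks were not searched for the motif, so scores with and without it could not be compared.

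Of the 150 members without an assigned peak, 17 had one within 50 kb of the gene span that was assigned to another gene. A peak of score 316 (rank 23) in an intron of Agfg2 lay 47.0 kb from Fbxo24. For the Fbxl subfamily, a peak of score 123 lay 46.3 kb from Fbxl20 and 1 of score 83, assigned to Actb, lay 24.2 kb from Fbxl18. The peaks nearest to Usp4 and Usp5 lay 6.83 and 9.25 kb away, with scores of 58 and 49, and those of Klhl22, Klhl26, Klhl41, Klhl18, Klhl3 and Klhl33 lay between 17.6 and 46.2 kb away. Fbxw24, Fbxw25, Fbxw5, Usp10 and Usp37 were also among the 17, and the centre of the peak at Usp37 lay inside the gene span. With any peak within 50 kb of the gene span counted instead, whatever its assignment, 37 of 171 members had one (21.6%), against 18.2% of coding genes. That count leaves out Klhl5, whose assigned peak lay more than 50 kb from its span.

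The rest of the ubiquitin pathway was read from 4 lists of other genes. In the core of the cullin-RING ligases and the NEDD8 pathway that activates them, 2 of 37 genes had a peak (5.41%, exact 95% interval 0.661 to 18.2). They were Ube2f, which encodes a NEDD8-conjugating enzyme, with a promoter peak of score 120, and Rnf7, which encodes the RING subunit that UBE2F serves in CUL5 ligases, with an intergenic peak of score 54. No cullin gene had one. Among adaptors of the same kinds under other symbols, 4 of 28 had a peak (14.3%, interval 4.03 to 32.7), led by the promoter of the BTB-Kelch gene Kbtbd7 at a score of 265 (rank 44). Rhobtb1 (78 and 28), Kbtbd11 (33, inside Arhgef10) and Ivns1abp (18) were the others. Keap1, Btrc and Skp2 had none.

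Of 32 other deubiquitinases, 5 had a peak (15.6%, interval 5.28 to 32.8). Otud7b, whose product limits NF-kappaB signalling, had a peak of score 215 in an exon, assigned by distance to Mtmr11. Tnfaip3, which encodes the NF-kappaB inhibitor A20, had a promoter peak of score 99. Josd1 (34), Otud6b (25) and Uchl5 (22 and 18) followed. Of 37 RING and HECT ligases, 6 had a peak (16.2%, interval 6.19 to 32.0). Among them were Trim8 (280 and 64), Nedd4 (179 and 56), Cblb (155 and 36), Mdm2 (69, inside Cpm) and Rnf4 (40). The Trim8 peak of score 280 lay inside Sufu, 42.2 kb from the TSS of Trim8. The 8.69% of all coding genes lay inside the interval of each of the 4 lists, as it did for the 171 members. The 9 peaks of the RING and HECT ligases had a median score of 69 and the 6 of the other deubiquitinases one of 29.5. For the 2 peaks of the cullin-RING core it was 87, and for the 5 of the other adaptors 33. The 24 member peaks had a median of 50.5 and all peaks one of 67. These list medians rest on few peaks, and their differences were not tested.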

How the data were processed

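Granulosa-cell chromatin bound by FOS was sequenced, and the deposited file lists the peaks of that single library. Its header records that HOMER annotatePeaks.pl was run on a narrowPeak file. MACS2 2.2.7.1, deepTools 3.5.1, BWA, Trim Galore and the mm10 build are named in, and taken per, the submitters' processing notes. What threshold or control the peak caller was given is not stated there. The peak score is the authors' deposited score, on a scale that is not stated. Positions, distances to the TSS and classes are other deposited values, per the file headers. Depth is unknown, so a single score carries no interval. Medians carry a 95% interval from binomial order statistics over peaks, which are not replicates.

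All 2374 nearest genes, and 1311 of 1314 host names, were matched to RefSeq (GRCm38.p6) by accession, symbol or older symbol. Of 175 symbols that fit the rule 4 were noncoding or pseudogenes, had no peak and were left out. Shares carry exact Clopper-Pearson 95% intervals, and no test was made. Scripts were checked on simulated data. Every member with a peak was named, with up to 6 genes per list, except for results on a few genes that are not reported here. Members and lists were chosen with earlier results of these data known. Usp37 and the neighbouring genes of members were named after their values were seen. Alternatives covered assignment, score, distance, promoter definition and tandem copies. Sequence under peaks outside promoter windows was not analysed here. Python 3.11.15, pandas 2.3.3, numpy 2.4.6 and scipy 1.17.1 were used.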

Additional observations from a re-analysis of the deposited data

How the results depend on the processing

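Of 34 alternatives, 29 left a value within the 95% interval of the reported value, or a count within 1.5 times, and 5 moved it. Some of the 29 could not have moved, so their number is not a measure of stability. The nearest gene alone repeated each member value because the host gene had added no peak. Leaving out the top 1% of scores, from 307 up, removed no member peak, the highest being 194. For Fbxl, stricter settings could not lower a share of 0. The share of members with a peak was 21.6% (18.2% of coding genes) with any peak within 50 kb of the gene span. It was 5.26% (4.75%) with peaks of at least the median score, 2.34% (2.55%) with scores of 99 or more and 4.68% (3.48%) with peaks within 10 kb of the TSS. With scores of 99 or more alone the members' share lay below that of coding genes. With the nearest gene alone the members' share was 12.3% (7.58%), and with peaks within 100 kb of the TSS 11.7% (6.89%). In both, the share of coding genes lay just below the members' interval. With the host gene alone the members' share was 8.19%, and the 5.64% of coding genes lay inside its interval of 4.55 to 13.4. For Usp, the share was 5.36% with peaks of at least the median score, and for Klhl 10.8%. Without tandem copies the share of members was 13.2%, and without Usp6nl 11.8%, both chosen after seeing the data. Without Usp6nl the median score was 46. No paired analysis was possible because the FOS library alone has values. A single library with no read counts limits every value.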
